A study of Homo sapiens with 12 samples.

Results

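The 10 genes described here are *VEGFA*, *CA9*, *ADM*, *SLC2A1*, *LDHA*, *PGK1*, *ANGPTL4*, *NDRG1*, *BNIP3* and *HK2*, widely used readouts of the hypoxia response and of glycolysis. They were taken by gene name from a table of 45416 genes, and all 10 passed a filter on low read counts that left 17982 genes to test. The values come from RNA-seq of U251, an established human glioblastoma cell line labelled as wild type, transfected with an siRNA control (siNC) or with siPDL1-1 or siPDL1-2, siRNAs against *PD-L1* (*CD274* in the table). After 48 h of transfection the cells of each siRNA were left unstimulated or were given IFNγ at 100 U/ml for 24 h, which made 6 groups of 2 libraries. Every group was therefore transfected, no group was untransfected, and the labels name no group kept at low oxygen. The study's methods name 2 independent experiments, but the labels do not tie the replicate numbers to them, so the tests measure the spread between these 2 libraries per group.

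Cells sense oxygen through prolyl hydroxylases, which mark the alpha subunits of the hypoxia-inducible factors (HIFs) for destruction through the VHL ubiquitin ligase. When oxygen is scarce, or when the hydroxylases lack iron or cofactors, a HIF alpha subunit accumulates, pairs with ARNT and binds the hypoxia response element, whose core is ACGTG or GCGTG. The targets carry glucose into the cell and through glycolysis, regulate pH, secrete vessel-forming and metabolic signals and remove mitochondria, and in glioblastoma they are known from the rims of necrotic zones.

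The promoter sequences are shown because this core is what the HIFs recognize and because the first 4 genes printed form the pairs whose levels moved most alike here. They are RefSeq windows of GRCh38.p14, running from 250 bases before to 50 bases after a transcript start, and the capitals mark every ACGTG or GCGTG on either strand, so that CACGT and CACGC are matches on the opposite strand.
PGK1, chrX:78103998-78104297, plus strand: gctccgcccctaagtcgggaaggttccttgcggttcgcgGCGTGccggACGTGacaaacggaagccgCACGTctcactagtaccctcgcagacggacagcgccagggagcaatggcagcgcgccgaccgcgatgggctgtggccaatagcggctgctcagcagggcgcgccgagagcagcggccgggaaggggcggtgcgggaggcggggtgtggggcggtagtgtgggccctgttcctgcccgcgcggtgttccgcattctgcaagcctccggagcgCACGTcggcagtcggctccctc
BNIP3, chr10:131981874-131982173, minus strand: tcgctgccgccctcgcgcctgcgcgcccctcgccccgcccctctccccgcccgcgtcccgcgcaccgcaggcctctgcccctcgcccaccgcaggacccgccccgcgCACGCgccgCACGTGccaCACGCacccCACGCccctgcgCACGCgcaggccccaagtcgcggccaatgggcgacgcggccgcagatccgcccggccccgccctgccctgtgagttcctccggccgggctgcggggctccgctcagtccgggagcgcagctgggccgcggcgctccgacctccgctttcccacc
ADM, chr11:10304823-10305122, plus strand: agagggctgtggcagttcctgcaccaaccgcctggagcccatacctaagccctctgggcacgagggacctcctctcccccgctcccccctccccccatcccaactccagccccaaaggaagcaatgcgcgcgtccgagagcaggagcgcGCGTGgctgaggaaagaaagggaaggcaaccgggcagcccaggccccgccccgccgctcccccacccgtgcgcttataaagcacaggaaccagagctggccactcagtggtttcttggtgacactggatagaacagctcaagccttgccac
HK2, chr2:74833877-74834176, plus strand: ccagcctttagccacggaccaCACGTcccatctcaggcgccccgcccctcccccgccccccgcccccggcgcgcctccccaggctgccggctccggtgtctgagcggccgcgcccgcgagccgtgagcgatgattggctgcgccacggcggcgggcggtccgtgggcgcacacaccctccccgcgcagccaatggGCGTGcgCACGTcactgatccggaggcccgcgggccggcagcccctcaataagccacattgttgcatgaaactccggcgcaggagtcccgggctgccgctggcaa
CA9, chr9:35673678-35673977, plus strand: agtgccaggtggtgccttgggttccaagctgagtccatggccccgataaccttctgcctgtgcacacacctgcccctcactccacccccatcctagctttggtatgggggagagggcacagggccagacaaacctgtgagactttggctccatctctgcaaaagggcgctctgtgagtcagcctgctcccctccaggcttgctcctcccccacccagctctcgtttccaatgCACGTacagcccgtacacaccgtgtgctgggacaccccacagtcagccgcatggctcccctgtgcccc
Windows were at hand for 8 of the 10 genes, and each of these windows held at least 1 core. Of 35116 RefSeq promoter windows of the same length, 48.45% held at least 1 core, 21.41% held ACGTG and 36.54% held GCGTG, so a single match is common. The *PGK1* window held 4 cores, that of *BNIP3* 6, that of *ADM* 1 and that of *CA9* 1. The printed *HK2* window held 3 cores and a second *HK2* window 6. *LDHA* had 1 window with 6 cores and 1 with 1, and *SLC2A1* and *ANGPTL4* had 1 core each. Each strand was counted, so a CACGTG, which reads the same on both strands, counts once on each. This applies to the *BNIP3* window, the second *HK2* window and the *LDHA* window with 6 cores. A letter match is a description of the window, and binding was not measured.

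Per kilobase of the canonical transcript, which is the scale on which levels of different genes can be set side by side, *PGK1* was the most abundant of the 10 genes, with a mean over the 12 libraries of 409 CPM (read counts scaled to library size) per kb. It was followed by *BNIP3* at 227, *NDRG1* at 205, *VEGFA* at 136, *CA9* at 126 and *SLC2A1* at 102 CPM per kb. *NDRG1* was above *BNIP3* in the 4 unstimulated siNC and siPDL1-1 libraries, and their ranges overlapped (197 to 269 for *BNIP3* and 157 to 235 for *NDRG1*). *VEGFA* and *CA9* overlapped over the libraries (113 to 151 against 97.5 to 146 CPM per kb), and so did *CA9* and *SLC2A1*, which ranged from 82.0 to 120 CPM per kb. *HK2* averaged 38.7 and *ADM* 36.7 CPM per kb, with overlapping ranges, and *LDHA* averaged 14.0. *ANGPTL4* was barely expressed, at 0.474 CPM per kb and 16 to 65 reads per library. *LDHA* was thus far below *PGK1*, but its level is uncertain, because GENCODE lists 6 *LDHA* pseudogenes, 44 of *BNIP3*, 2 of *PGK1* and 1 of *HK2*, none of which is a row of the table, and reads with up to 10 hits had been kept in the mapping. Strand was not used in counting. The span of *CA9* (mean 194 CPM) overlaps that of *ARHGEF39* on the opposite strand (20.7 CPM). That of *PGK1* overlaps that of *ATP7A* on the same strand (40.5 CPM). Whole gene spans were compared and not exons, so only reads in any shared exon stretch could not be told apart.

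Between 17101069 and 55657393 reads per library lay on genes, and the replicate libraries differed by more than sampling noise, so none was a copy of another. *CD274*, the targeted gene, was 4.60 and 4.91 CPM in unstimulated siNC libraries, 2.67 and 2.73 with siPDL1-1, and 3.57 and 3.45 with siPDL1-2. After IFNγ it was 71.2 and 76.0 CPM with siNC, 60.9 and 66.7 with siPDL1-1, and 37.5 and 35.0 with siPDL1-2. Both siRNAs lowered it in unstimulated cells, by 0.64 and 0.35 on the log2 scale, and siPDL1-2 lowered it by 1.00 after IFNγ (adjusted p = 1.76e-05, 0.00183 and 4.25e-07, limma with Benjamini-Hochberg adjustment over all genes tested). With siPDL1-1 after IFNγ the difference from siNC, -0.20, did not pass the threshold of 0.01 (adjusted p = 0.0498). *IRF1*, a textbook IFNγ target, rose with IFNγ in the cells of every siRNA, by 4.44 to 4.85 on the log2 scale. Of the lineage markers, *VIM* (3139 to 3968 CPM), *NES*, *SOX2* and *CD44* were high, *GFAP* was low at 1.92 to 7.25 CPM, *S100B* was 2.40 to 5.92 CPM and *OLIG2* was below 1 CPM. Of 8 markers of leukocytes, endothelium, epithelium and neurons, 7 were under 1 CPM in every library and *CDH5* reached 1.62 CPM. In bulk libraries, less RNA per cell and fewer cells of a type cannot be told apart.

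**Figure D1:**
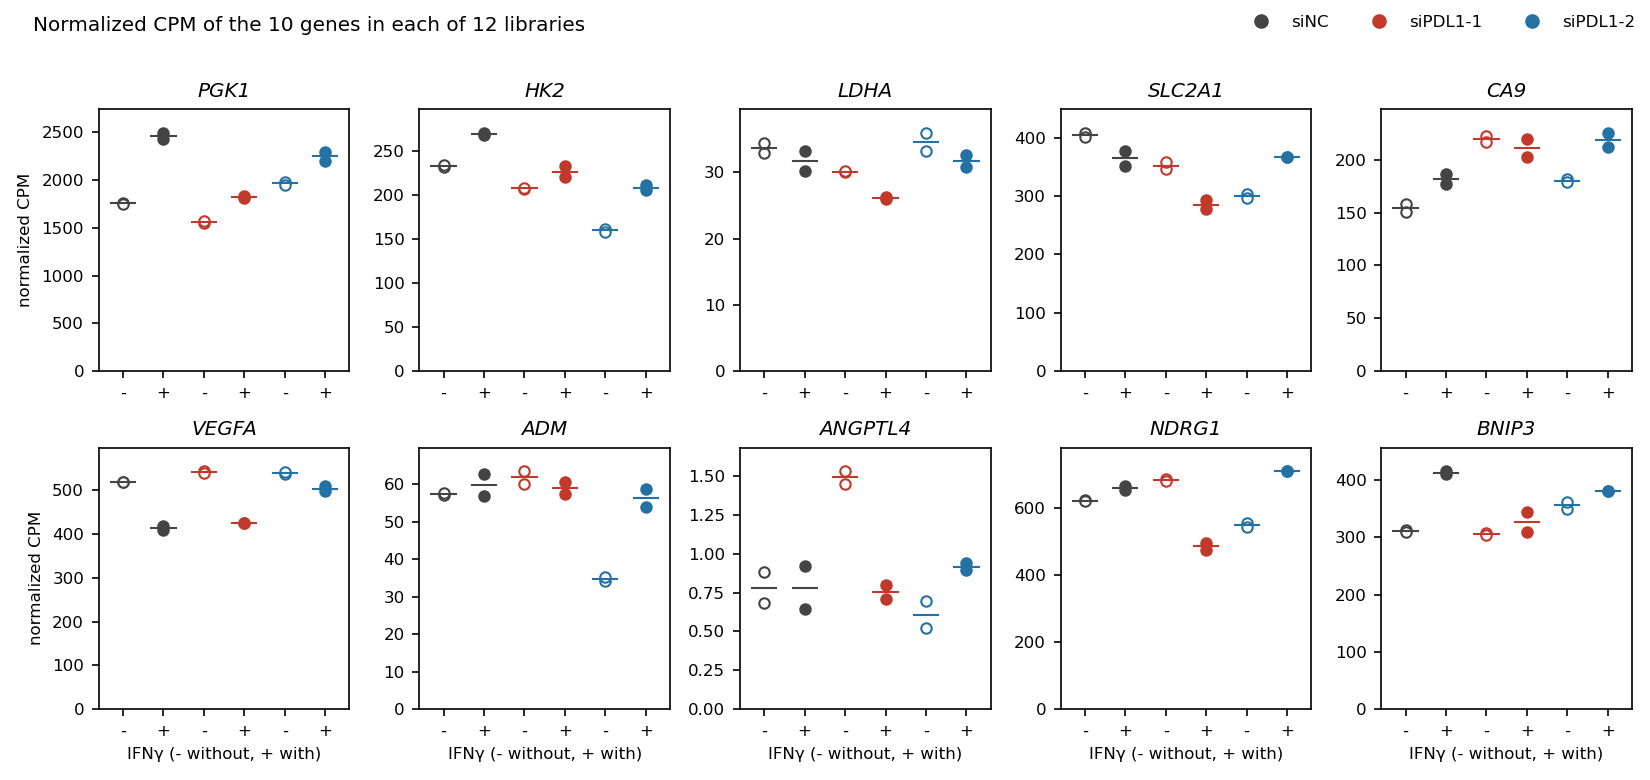
Normalized CPM (y axis, from 0) of each gene in each of the 12 libraries, with open points for unstimulated and filled points for IFNγ-stimulated cells, coloured by siRNA, and lines at the means of 2 libraries. *ADM* was low in the unstimulated siPDL1-2 libraries (34.1 and 35.3 CPM) and between 53.9 and 63.4 CPM in all others.

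The spread between replicates was small next to the differences between groups for most of these genes. The coefficient of variation within a group averaged 0.775% for *VEGFA* and 1.26% for *PGK1*, 3.92% for *ADM* and 13.2% for *ANGPTL4*. The highest group mean exceeded the lowest by 1.31 times for *VEGFA*, 1.57 times for *PGK1*, 1.69 times for *HK2* and 1.78 times for *ADM*, and the other genes lay between 1.32 and 1.46 times, apart from 2.46 times for the sparse *ANGPTL4*. The values of each gene are given next by role, with log2 fold changes fitted on log2 of CPM plus 1.

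*SLC2A1* (chr1:42925353-42958893) encodes GLUT1, the transporter that brings glucose into most cells. In siNC cells it was 407 and 401 CPM unstimulated and 377 and 352 CPM with IFNγ. In siPDL1-1 cells it was 347 and 357 CPM unstimulated and 292 and 278 CPM with IFNγ, the lowest values of the series. In siPDL1-2 cells it was 303 and 297 CPM unstimulated and 366 CPM in both IFNγ libraries. IFNγ therefore lowered *SLC2A1* by 0.15 ± 0.04 (SE) in siNC cells and by 0.30 ± 0.04 in siPDL1-1 cells, whereas it raised it by 0.29 ± 0.04 in siPDL1-2 cells (adjusted p = 0.00934, 4.22e-05 and 1.07e-04 in limma). The change in siNC cells lay at the edge of the threshold. It was kept without IFNγ-stimulated siNC replicate 1 or either IFNγ-stimulated siPDL1-1 library, and was lost when any one of the other 9 libraries was left out, with adjusted p up to 0.145.

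*HK2* (chr2:74834127-74893359) encodes hexokinase 2, which traps glucose in the cell by phosphorylation. It was 233 and 235 CPM in unstimulated and 271 and 269 CPM in IFNγ-stimulated siNC cells. With siPDL1-1 it was 207 and 209 CPM unstimulated and 233 and 221 CPM with IFNγ. With siPDL1-2 it was 162 and 158 CPM unstimulated and 206 and 211 CPM with IFNγ. *HK2* was lower with either siRNA against *PD-L1* than with siNC in both states. With siPDL1-1 the differences were -0.17 unstimulated and -0.25 with IFNγ, and with siPDL1-2 after IFNγ the difference was -0.37. The largest was in unstimulated siPDL1-2 cells (-0.54 ± 0.04, adjusted p = 1.08e-07 in limma).

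*PGK1* (chrX:77910739-78129295) encodes phosphoglycerate kinase 1, which catalyses the first ATP-yielding step of glycolysis. It was 1761 and 1753 CPM in unstimulated siNC cells and 2427 and 2492 CPM with IFNγ, the highest values of the series. In siPDL1-1 cells it was 1553 and 1573 CPM unstimulated and 1832 and 1815 CPM with IFNγ. In siPDL1-2 cells it was 1980.2 and 1951 CPM unstimulated and 2205 and 2294 CPM with IFNγ. It rose with IFNγ in the cells of every siRNA, by 0.48 ± 0.03 with siNC, 0.22 ± 0.03 with siPDL1-1 and 0.19 ± 0.03 with siPDL1-2. *PGK1* was the only one of the 10 genes to pass the threshold in all 11 comparisons.

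*LDHA* (chr11:18394560-18408425) encodes the lactate dehydrogenase subunit that favours turning pyruvate into lactate. It was 32.9 and 34.5 CPM in unstimulated and 30.2 and 33.3 CPM in IFNγ-stimulated siNC cells. With siPDL1-1 it was 30.0 and 30.2 CPM unstimulated and 26.3 and 25.9 CPM with IFNγ. With siPDL1-2 it was 35.9 and 33.2 CPM unstimulated and 30.8 and 32.7 CPM with IFNγ. It was lowest in IFNγ-stimulated siPDL1-1 cells, where it was below siNC (-0.27 ± 0.06, adjusted p = 0.00443) and below siPDL1-2 (-0.27 ± 0.06, adjusted p = 0.00858). Both calls were lost in several alternatives, among them DESeq2 (adjusted p = 0.0133 and 0.0281).

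*CA9* (chr9:35673918-35681159) encodes carbonic anhydrase IX, a cell-surface enzyme that helps export acid and is often used as a tissue marker of hypoxia. It was 158 and 151 CPM in unstimulated siNC cells, the lowest values of the series, and 187 and 177 CPM with IFNγ. With siPDL1-1 it was 222 and 217 CPM unstimulated and 219.6 and 202 CPM with IFNγ. With siPDL1-2 it was 182 and 179 CPM unstimulated and 212 and 225 CPM with IFNγ. *CA9* was higher with either siRNA against *PD-L1* than with siNC in both states. The differences were 0.51 ± 0.05 and 0.22 ± 0.05 in unstimulated cells and 0.21 ± 0.05 and 0.27 ± 0.05 with IFNγ, for siPDL1-1 and siPDL1-2 (adjusted p = 2.35e-06, 0.00201, 0.00319 and 9.07e-04). The first of these was kept whichever library was left out. The other 3 were lost without single libraries, with differences of 0.16 to 0.23 and adjusted p up to 0.0438. These were unstimulated siNC replicate 2 or either unstimulated siPDL1-2 library for siPDL1-2 unstimulated, IFNγ-stimulated siNC replicate 2 or siPDL1-1 replicate 1 for siPDL1-1 with IFNγ, and IFNγ-stimulated siNC replicate 2 or siPDL1-2 replicate 2 for siPDL1-2 with IFNγ. The rise with IFNγ, 0.23 in siNC cells, was lost without unstimulated siNC replicate 2 or IFNγ-stimulated siNC replicate 1 (adjusted p = 0.0264 and 0.0180). That of 0.28 in siPDL1-2 cells was lost without replicate 2 of either state (adjusted p = 0.0126 unstimulated and 0.0129 with IFNγ), and was 0.07 and lost with the GC and length trend removed (adjusted p = 0.0753).

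*VEGFA* (chr6:43770184-43786487) encodes the main vessel-forming growth factor. It was 519 and 520.0 CPM in unstimulated and 419.8 and 409 CPM in IFNγ-stimulated siNC cells. With siPDL1-1 it was 544 and 539.6 CPM unstimulated and 425 CPM in both IFNγ libraries. With siPDL1-2 it was 537 and 542 CPM unstimulated and 509.7 and 499 CPM with IFNγ. *VEGFA* fell with IFNγ by 0.33 ± 0.03 in siNC cells and by 0.35 ± 0.03 in siPDL1-1 cells (adjusted p = 1.82e-06 and 8.74e-07). In siPDL1-2 cells the difference of -0.10 ± 0.03 did not pass the threshold (adjusted p = 0.0397). It passed on CPM without the scaling factors (-0.16, adjusted p = 0.00220) and with the GC and length trend removed (-0.14, adjusted p = 1.32e-04).

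*ADM* (chr11:10305073-10307397) encodes adrenomedullin, a secreted peptide that relaxes and protects vessels. In siNC cells it was 57.1 and 57.6 CPM unstimulated and 62.6 and 56.9 CPM with IFNγ. In siPDL1-1 cells it was 63.4 and 60.1 CPM unstimulated and 57.4 and 60.6 CPM with IFNγ. In siPDL1-2 cells it was 34.1 and 35.3 CPM unstimulated and 53.9 and 58.7 CPM with IFNγ. The unstimulated siPDL1-2 libraries thus stood apart from the other 10. *ADM* was lower there than in unstimulated siNC cells (-0.71 ± 0.06, adjusted p = 6.02e-07), lower than with siPDL1-1 (0.81 ± 0.06 for siPDL1-1 minus siPDL1-2, adjusted p = 3.57e-07), and rose from there with IFNγ (0.68 ± 0.06, adjusted p = 6e-07). These were the differences of *ADM* that passed the threshold, together with that between the IFNγ responses, and all 4 were over 1.5-fold.

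*ANGPTL4* (chr19:8363289-8374370) encodes a secreted inhibitor of lipoprotein lipase. It was 0.881 and 0.683 CPM in unstimulated and 0.918 and 0.643 CPM in IFNγ-stimulated siNC cells. With siPDL1-1 it was 1.45 and 1.53 CPM unstimulated and 0.709 and 0.800 CPM with IFNγ. With siPDL1-2 it was 0.695 and 0.519 CPM unstimulated and 0.938 and 0.892 CPM with IFNγ. The 2 unstimulated siPDL1-1 libraries, with 50 and 65 reads, were above the other 10. They exceeded unstimulated siPDL1-2 cells by 0.63 ± 0.12 (adjusted p = 9.01e-04), but the calls of this gene were lost when 1 of several libraries was left out. Without siPDL1-2 replicate 2 of the unstimulated cells the difference was 0.55 (adjusted p = 0.0171), and without siPDL1-1 replicate 2 it was 0.61 (adjusted p = 0.0117).

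*NDRG1* encodes a protein induced by hypoxia and other stresses and known as a metastasis suppressor. In siNC cells it was 623 and 622 CPM unstimulated and 667 and 653 CPM with IFNγ. In siPDL1-1 cells it was 686 and 682 CPM unstimulated and 496 and 476 CPM with IFNγ. In siPDL1-2 cells it was 557 and 544 CPM unstimulated and 709.7 and 710.0 CPM with IFNγ. *NDRG1* fell with IFNγ by 0.49 ± 0.03 in siPDL1-1 cells and rose by 0.37 ± 0.03 in siPDL1-2 cells (adjusted p = 2.10e-08 and 9.36e-07), and the 2 siRNAs against *PD-L1* were in opposite order in the 2 states.

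*BNIP3* (chr10:131966455-131982013) encodes a mitochondrial protein that marks mitochondria for removal by mitophagy. In siNC cells it was 314 and 310.2 CPM unstimulated and 411 and 415 CPM with IFNγ. In siPDL1-1 cells it was 308 and 305 CPM unstimulated and 309 and 345 CPM with IFNγ. In siPDL1-2 cells it was 349.6 and 362 CPM unstimulated and 381 and 381.5 CPM with IFNγ. It rose with IFNγ in siNC cells by 0.40 ± 0.05 (adjusted p = 4.69e-06). In cells of the other siRNAs the differences were 0.09 ± 0.05 and 0.10 ± 0.05 and did not pass the threshold (adjusted p = 0.128 and 0.111), although the first was 0.17 and passed without IFNγ-stimulated siPDL1-1 replicate 1 (adjusted p = 0.00220).

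The first comparison asked how the 10 genes responded to IFNγ in control cells. In siNC cells *PGK1*, *BNIP3*, *CA9* and *HK2* rose by 1.40, 1.32, 1.18 and 1.16 times, and *VEGFA* and *SLC2A1* fell to 0.798 and 0.901 times their unstimulated level. No gene of the 10 passed both thresholds (adjusted p under 0.01 and a fold change over 1.5), against 8.12% of all genes tested, and edgeR and DESeq2 also gave 0, as did limma with an unadjusted p under 0.05 in place of the adjusted one. By the adjusted p alone 4 of 10 were higher and 2 lower, against 17.9% and 9.34% of all genes. An alternative chosen after seeing the data, which covers 17922 of the genes, removed the trend on GC content and transcript length. It also re-centred each library, so that genes of at least 5 CPM had the same mean log2 level in all. The balance over all genes then turned over, from 3222 higher and 1679 lower to 1944 and 3199, with a median of -0.07. The 10 genes had 5 higher and 3 lower. The share of the re-centring in this turnover was not tested. In control cells, then, a rise of *PGK1*, *HK2* and *BNIP3* was measured beside a fall of *VEGFA* and *SLC2A1*. Their median log2 change was 0.07, beside 0.00123 over all genes tested.

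In siPDL1-1 cells IFNγ raised *PGK1* by 1.17 times and lowered *NDRG1*, *VEGFA* and *SLC2A1* to 0.711, 0.785 and 0.810 times. *ANGPTL4* fell to 0.704 times on the scale of CPM plus 1. None of the 10 passed both thresholds in limma, edgeR or DESeq2, against 6.87% of all genes in limma. In limma 1 was higher and 4 were lower by the adjusted p alone, against 14.4% and 8.49% of all genes, with a median of -0.13 over the 10 and -0.02 over all genes tested. In limma no gene of the 10 exceeded 1.5-fold at an unadjusted p under 0.05 here, nor in any other comparison in which none passed both thresholds. After removal of the GC and length trend, with the same re-centring, 2 of the 10 were higher and 5 lower. Over all genes 2595 higher and 1527 lower became 1857 and 3733. The fall of *ANGPTL4* from 1.49 to 0.755 CPM was lost with edgeR (adjusted p = 0.0141) and with DESeq2 (adjusted p = 0.0993).

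In siPDL1-2 cells the direction was upward. *ADM* rose 1.60 times, *HK2* 1.30, *NDRG1* 1.29, *SLC2A1* 1.22, *CA9* 1.21 and *PGK1* 1.14 times. *ADM* passed both thresholds, 1 of 10 against 5.27% of all genes, and its change stayed between 0.62 and 0.74 on the log2 scale when any library was left out. In limma 6 were higher and 0 lower by the adjusted p alone, as in edgeR and DESeq2, against 9.57% and 7.56% of all genes, and at an unadjusted p under 0.05 these were 7 and 1. The median was 0.27 over the 10 and -0.01 over all genes tested. With the GC and length trend removed and the libraries re-centred, 5 were higher and 1 was lower, with a median of 0.15. Over all genes 1721 higher and 1359 lower became 1599 and 2644. *CA9* was then lost, *VEGFA* was lower (-0.14, adjusted p = 1.32e-04), and *ADM*, at 0.54, no longer passed the fold threshold.

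**Figure D2:**
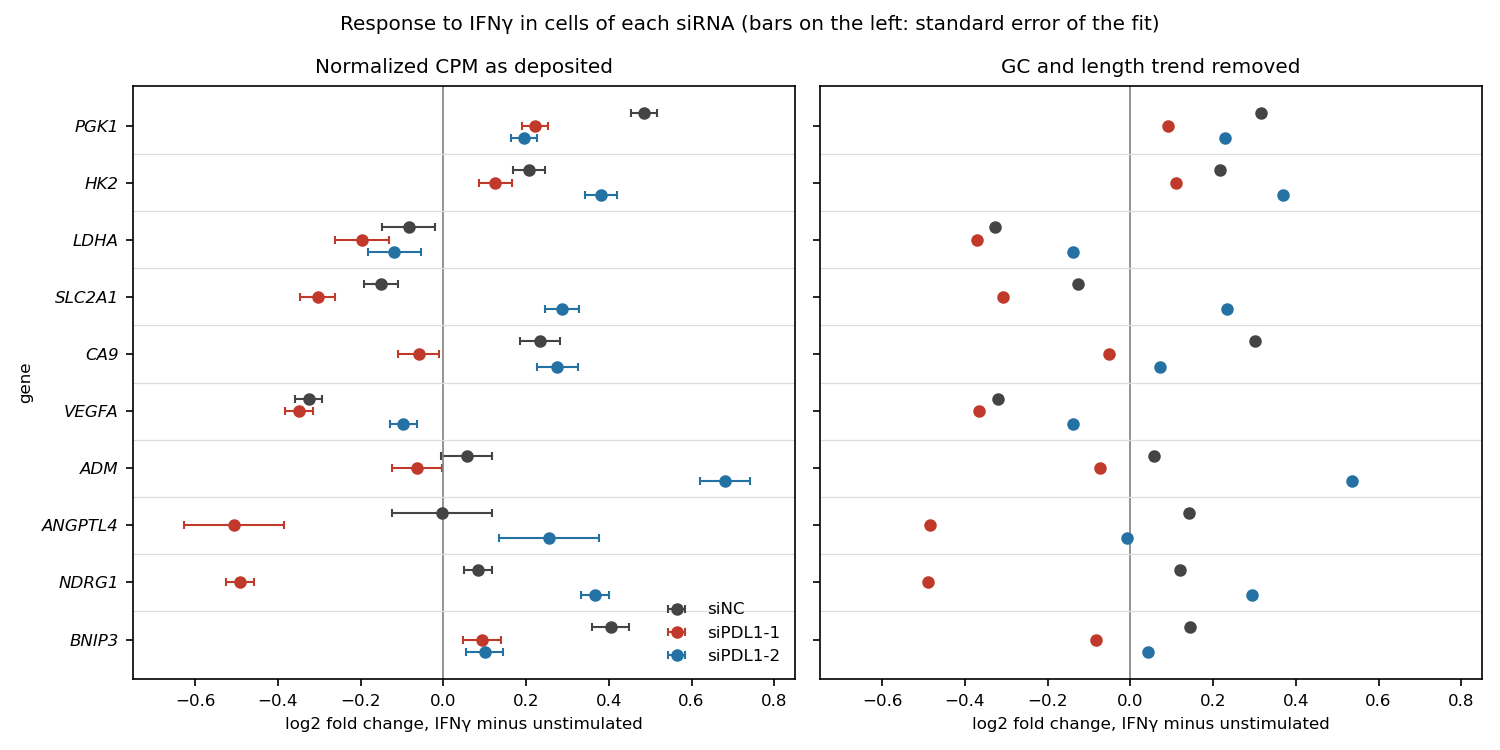
Log2 fold change of each gene between IFNγ-stimulated and unstimulated cells (x axis) for each siRNA, as fitted on the deposited values with standard errors (left) and after the trend on GC content and transcript length was removed (right). *NDRG1* and *SLC2A1* fell with siPDL1-1 and rose with siPDL1-2 in both panels, and the *BNIP3* change with siNC was 0.40 on the left and 0.14 on the right.

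Whether the IFNγ response itself differed between the siRNAs was tested as an interaction in the same fit. For siPDL1-1 against siNC 0 of the 10 genes passed both thresholds in limma, edgeR or DESeq2, against 0.968% of all genes in limma. By the adjusted p alone 0 were higher, against 1.25%, and 2 were lower, against 0.378%, and at an unadjusted p under 0.05 these were 0 and 6. The *NDRG1* response was lower by 0.58 ± 0.05 on the log2 scale (adjusted p = 1.88e-06). Its change was 0.08 in siNC cells, which did not pass the threshold, and a fall (-0.49) in siPDL1-1 cells. *PGK1* responded less by 0.26 ± 0.04 (adjusted p = 0.00251), a call that was lost in edgeR (adjusted p = 0.0206) and without several single libraries. Without siNC replicate 1 or 2 of the unstimulated cells, siNC replicate 2 of the IFNγ-stimulated cells, or either unstimulated siPDL1-1 library, 1 gene in place of 2 passed. Without IFNγ-stimulated siNC replicate 2 or IFNγ-stimulated siPDL1-1 replicate 1, 1 gene passed both thresholds. The *BNIP3* difference, -0.31 (adjusted p = 0.0122), was -0.39 and passed without IFNγ-stimulated siPDL1-1 replicate 2 (adjusted p = 1.30e-04).

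For siPDL1-2 against siNC the response of 6 of the 10 genes differed. It was higher for *ADM* (0.63 ± 0.09, adjusted p = 1.49e-04), *SLC2A1* (0.44 ± 0.06, adjusted p = 1.28e-04), *NDRG1* (0.28 ± 0.05, adjusted p = 6.36e-04) and *VEGFA* (0.23 ± 0.05, adjusted p = 0.00219). It was lower for *PGK1* (-0.29 ± 0.04, adjusted p = 2.76e-04) and *BNIP3* (-0.30 ± 0.06, adjusted p = 0.00255). *HK2*, at 0.17 (adjusted p = 0.0277), passed in edgeR and DESeq2 (adjusted p = 0.00905 and 0.00309), which each called 7 genes. The 4 higher and 2 lower genes stand against 5.16% and 11.9% of all genes. Only *ADM* passed both thresholds, 1 of 10 against 7.62% of all genes, and its value ranged from 0.56 to 0.69 over the fits with a library left out. It fell below the fold threshold without IFNγ-stimulated siNC replicate 2 or IFNγ-stimulated siPDL1-2 replicate 2. The differences of *VEGFA* and *BNIP3* were each lost without single libraries, among them either unstimulated siNC library, with adjusted p up to 0.0157 for *VEGFA* and 0.0198 for *BNIP3*. Both response comparisons share the 4 siNC libraries.

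The GC content of the transcripts moved with these results. Over 11579 genes of at least 5 CPM, the log2 fold change correlated with GC content with Pearson's r = 0.77 for the difference between the siPDL1-2 and siNC responses and 0.69 for siPDL1-1 against siPDL1-2 in unstimulated cells, as a description across genes that share the same libraries. In the other comparisons r lay between -0.50 and 0.47. Of the 10 genes, *LDHA*, *BNIP3* and *PGK1* have the lowest GC content, 41.8%, 41.9% and 42.8%, and the others lie between 50.5% (*HK2*) and 63.3% (*ANGPTL4*). The genes with a higher response in siPDL1-2 than in siNC cells had 51.3% to 55.4% GC, and the 2 with a lower response 41.9% and 42.8%. When the trend on GC content and length was removed from each library, an alternative chosen after seeing the data, the response difference of *ADM* was 0.48 (adjusted p = 1.15e-04), of *SLC2A1* 0.36, of *NDRG1* 0.18 and of *VEGFA* 0.18, all past the threshold by adjusted p. Those of *PGK1* and *BNIP3* were -0.09 and -0.10 and no longer passed (adjusted p = 0.118 and 0.0852). *CA9*, with 0.04 as deposited, became -0.23 (adjusted p = 0.00119). For siPDL1-1 against siNC the *NDRG1* difference stayed at -0.61, and *CA9*, *SLC2A1* and *BNIP3* were then also lower (-0.35, -0.18 and -0.23). Within siNC cells the rise of *BNIP3* with IFNγ was 0.14 in place of 0.40 and that of *PGK1* 0.32 in place of 0.48, both still past the threshold, while *LDHA* fell by 0.33 (adjusted p = 1.22e-04) where the deposited values gave -0.08. The removal also re-centred each library on genes of at least 5 CPM. Whether GC content set these differences was not tested beyond this removal.

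**Figure D3:**
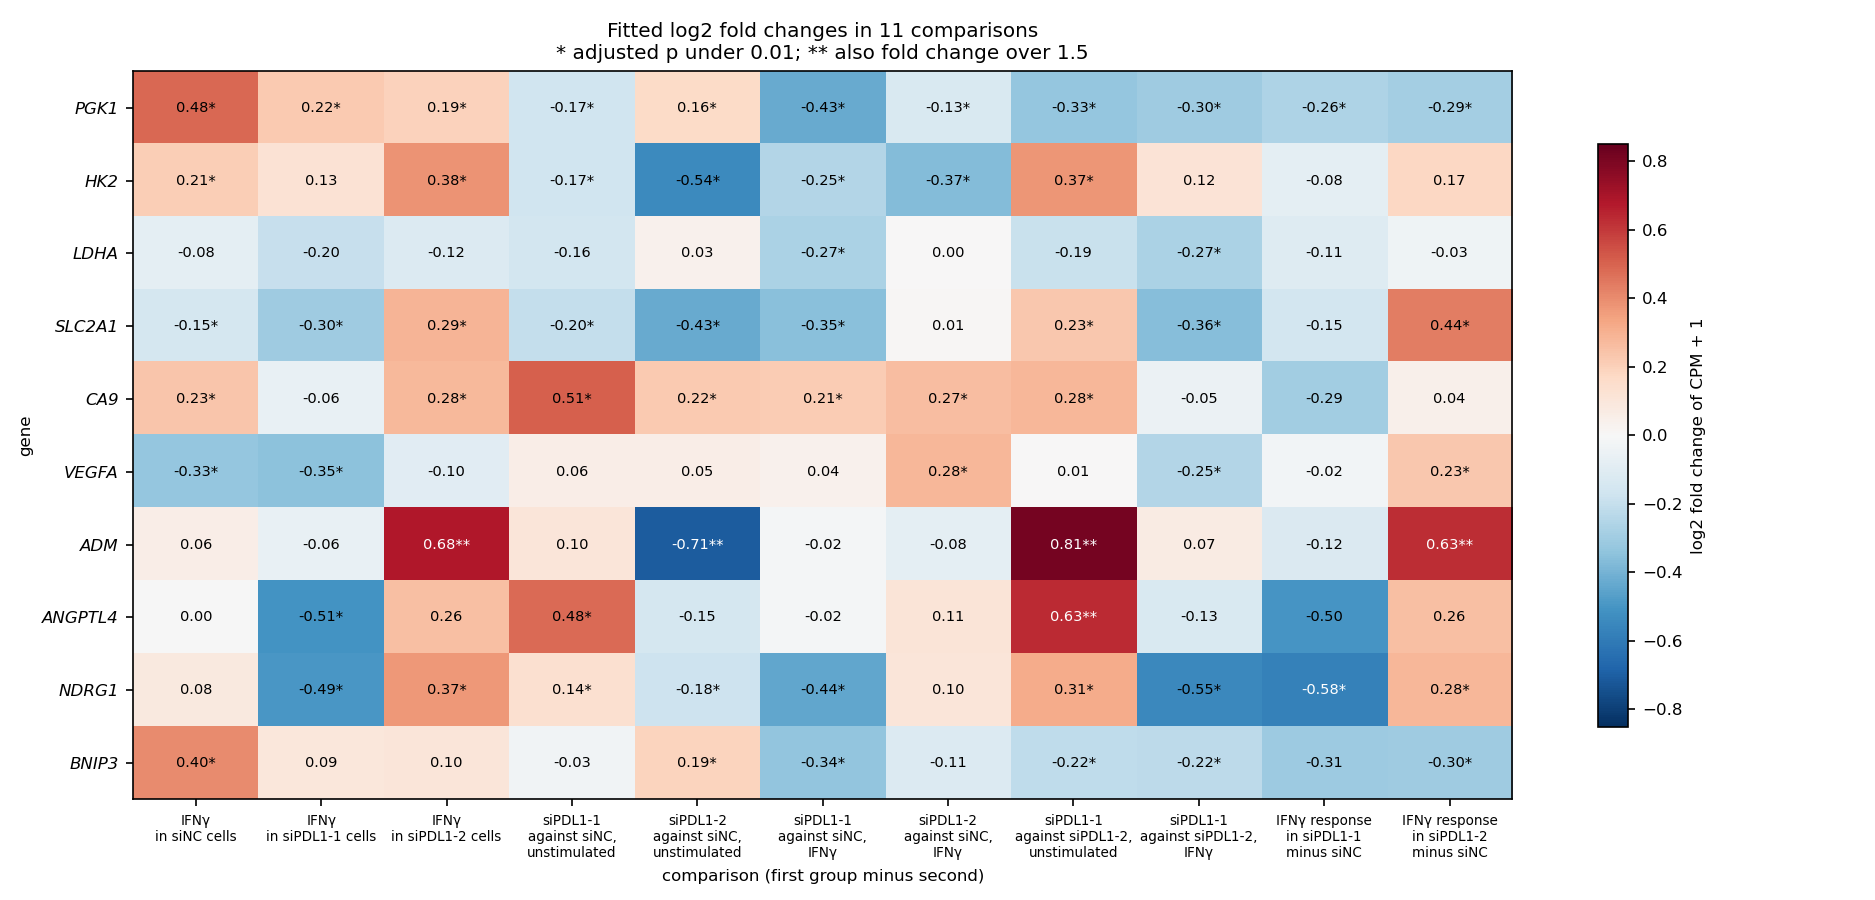
Heatmap of the fitted log2 fold change of CPM plus 1 for the 10 genes (rows) in 11 comparisons (columns), with 1 star for an adjusted p under 0.01 and a second star where the fold change also exceeded 1.5. *ADM* carries both stars in 4 comparisons and *ANGPTL4* in 1, and *PGK1* has a star in every column.

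The next comparison asked what each siRNA against *PD-L1* did without IFNγ, and both share the same 2 siNC libraries. With siPDL1-1, *CA9* was 1.42 times and *NDRG1* 1.10 times the siNC level, and *SLC2A1*, *PGK1* and *HK2* were 0.870, 0.890 and 0.890 times. *ANGPTL4* was 1.40 times the siNC level on the scale of CPM plus 1, with means of 1.49 against 0.782 CPM. None passed both thresholds in limma, edgeR or DESeq2, against 4.00% of all genes in limma. By the adjusted p alone 3 were higher and 3 lower in limma, against 9.80% and 8.99% of all genes. In edgeR and in DESeq2 1 was higher and 3 were lower. *NDRG1* was lost in edgeR (adjusted p = 0.0469) and DESeq2 (adjusted p = 0.0115). *ANGPTL4* was lost in edgeR (adjusted p = 0.0201), and DESeq2 gave it no adjusted p. Each call other than that of *CA9* was also lost in some of the fits with a single library left out. The *CA9* difference stayed past the threshold in each of these fits.

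With siPDL1-2, *ADM*, *HK2*, *SLC2A1* and *NDRG1* were 0.612, 0.687, 0.742 and 0.884 times the siNC level, and *CA9*, *BNIP3* and *PGK1* were 1.17, 1.14 and 1.12 times. *ADM* passed both thresholds, 1 of 10 against 6.17% of all genes. In limma 3 were higher and 4 lower by the adjusted p alone, against 16.5% and 11.9% of all genes. Without siNC replicate 2, siPDL1-2 replicate 1 or siPDL1-2 replicate 2 of the unstimulated cells 4 genes passed in place of 7. With the GC and length trend removed *ADM* was -0.59 and *CA9* 0.38, and *PGK1*, at 0.04, no longer passed (adjusted p = 0.276).

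After IFNγ, 6 of these transcripts were lower in siPDL1-1 than in siNC cells. *NDRG1* was 0.736, *PGK1* 0.742, *SLC2A1* 0.783, *BNIP3* 0.791, *LDHA* 0.829 and *HK2* 0.841 times the siNC level, and *CA9* alone was higher, at 1.16 times. None passed both thresholds in limma, edgeR or DESeq2, against 5.47% of all genes in limma, and by the adjusted p alone 1 was higher and 6 were lower, against 11.6% and 12.2%. The median over the 10 was -0.26, beside -0.00486 over all genes tested. With the GC and length trend removed *LDHA* no longer passed (-0.14, adjusted p = 0.0592) and *BNIP3* was -0.18.

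With siPDL1-2 after IFNγ, 4 of them differed from siNC cells, in a comparison with the same siNC libraries. *VEGFA* and *CA9* were 1.22 and 1.20 times, and *HK2* and *PGK1* 0.775 and 0.914 times the siNC level. None passed both thresholds in limma, edgeR or DESeq2, against 3.13% of all genes in limma. Those past the adjusted p alone were 2 higher and 2 lower, against 8.60% and 9.75% of all genes. The *PGK1* difference, -0.13 ± 0.03, was lost in edgeR (adjusted p = 0.0157) and with the GC and length trend removed (adjusted p = 0.150), and without IFNγ-stimulated siNC replicate 2 only 2 of the 10 genes passed.

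The 2 siRNAs against *PD-L1* were also set against each other. In unstimulated cells *ADM* was 1.76 times as high with siPDL1-1 as with siPDL1-2. *ANGPTL4* was 1.55 times as high on the scale of CPM plus 1, with means of 1.49 against 0.607 CPM. Both passed both thresholds, 2 of 10 against 4.35% of all genes. *HK2*, *NDRG1*, *CA9* and *SLC2A1* were also higher with siPDL1-1 (1.30, 1.24, 1.22 and 1.17 times), and *PGK1* and *BNIP3* were lower (0.796 and 0.861 times). These 6 higher and 2 lower genes stand against 9.89% and 14.2% of all genes. The 6 had 50.5% to 63.3% GC and the 2 had 41.9% and 42.8%, and with the GC and length trend removed 5 of the 10 passed. *CA9*, *ANGPTL4* and *BNIP3* were then at 0.09, 0.38 and -0.05 (adjusted p = 0.0270, 0.0386 and 0.257), while *ADM* was 0.70 (adjusted p = 8.89e-10). Without unstimulated siPDL1-1 replicate 2 or siPDL1-2 replicate 2, 5 genes passed the adjusted p and 1 passed both thresholds.

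After IFNγ the order was the opposite for *NDRG1* and *SLC2A1*. *NDRG1*, *SLC2A1*, *PGK1*, *LDHA*, *VEGFA* and *BNIP3* were lower with siPDL1-1, at 0.685, 0.779, 0.811, 0.829, 0.843 and 0.857 times the siPDL1-2 level. None passed both thresholds in limma, edgeR or DESeq2, against 2.23% of all genes in limma, and by the adjusted p alone 0 were higher and 6 lower, against 5.94% and 4.52%, with 1 and 6 at an unadjusted p under 0.05. *ADM*, *CA9*, *HK2* and *ANGPTL4* did not pass. In this comparison GC content moved little with the fold change (r = -0.03), and the same 6 differences passed after its removal, from -0.17 for *BNIP3* to -0.58 for *NDRG1*. As deposited, that of *BNIP3* (-0.22) was lost without IFNγ-stimulated siPDL1-1 replicate 1 or either IFNγ-stimulated siPDL1-2 library (adjusted p = 0.0142, 0.0167 and 0.0190). That of *LDHA* was lost without any one library other than the IFNγ-stimulated siNC ones, in 10 of 12 such fits (adjusted p up to 0.0745), and in edgeR (adjusted p = 0.0108) and DESeq2. *CD274* was higher with siPDL1-1 than with siPDL1-2 here, by 0.80 on the log2 scale.

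Over the 12 libraries the 10 genes did not move as 1 block. Of their 45 pairs, the correlation of log2 of CPM plus 1 ranged from -0.70 (*VEGFA* and *HK2*) to 0.95 (*PGK1* and *BNIP3*), with a median of 0.20, as a description over libraries that share groups. The next highest pairs were *ADM* with *HK2* (0.82) and *SLC2A1* with *NDRG1* (0.80). *PGK1* and *BNIP3* also share a low GC content (42.8% and 41.9%). *LDHA* (41.8% GC) correlated with them at 0.23 and 0.20. What set these correlations was not tested. Among 11579 genes of at least 5 CPM, those whose pattern was most like that of *ADM* were *UBOX5* (r = 0.94, 19.3 to 25.2 CPM) and *MPV17L2* (r = 0.94, 10.5 to 16.2 CPM), and those most like *ANGPTL4* were *EFEMP2* (r = 0.92) and *EFNA3* (r = 0.91).

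The HIF machinery, from a list of 13 genes of which 12 passed the filter on low counts (all but *HIF3A*), had 2 higher and 2 lower with IFNγ in siNC cells, 1 and 2 in siPDL1-1 cells and 2 and 4 in siPDL1-2 cells, with medians of -0.03, -0.02 and -0.05 beside 0.00123, -0.02 and -0.01 over all genes tested. Of all genes 17.9% were higher and 9.34% lower in siNC cells, 14.4% and 8.49% in siPDL1-1 cells and 9.57% and 7.56% in siPDL1-2 cells, so that the higher count in siNC cells was near the background. *HIF1A*, the oxygen-regulated alpha subunit, averaged 387 CPM in unstimulated and 400.0 CPM in IFNγ-stimulated siNC cells, 431 and 450.0 CPM with siPDL1-1, and 514 and 387 CPM with siPDL1-2. In the deposited values its message was 0.41 ± 0.05 above siNC in the unstimulated siPDL1-2 cells (adjusted p = 1.53e-05) and lower with siPDL1-1 than with siPDL1-2 there (-0.25, adjusted p = 0.00113). The transcript has 39.4% GC, and with the trend removed the first difference was 0.14 (adjusted p = 2.69e-04) and the second 0.04 and lost (adjusted p = 0.290). *EPAS1*, which encodes HIF-2 alpha, fell with IFNγ by 0.37 in the cells of each siRNA (adjusted p = 4.74e-06 to 8.24e-06), and was lower with siPDL1-2 than with siNC by 0.48 unstimulated and 0.47 with IFNγ. The brain-rich partner *ARNT2* fell with IFNγ by 0.38 to 0.57 in the cells of each siRNA. *ARNT* and the coactivator *EP300* passed in 0 of the 9 two-group comparisons, with differences of at most 0.17 on the log2 scale in limma. At an unadjusted p under 0.05 *ARNT* passed in 3 and *EP300* in 2, edgeR called *ARNT* in 1 and *EP300* in 0, and DESeq2 called both in 0. With the GC and length trend removed *ARNT* was lower with siPDL1-1 after IFNγ than with siNC and siPDL1-2 (-0.16 and -0.15, adjusted p = 0.00260 and 0.00836), and *EP300* was higher with siPDL1-2 unstimulated than with siNC (0.17, adjusted p = 0.00347).

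Of the prolyl hydroxylases, *EGLN1* rose with IFNγ in siNC cells from 48.9 to 77.8 CPM (0.66 ± 0.07, adjusted p = 3.35e-06), the only HIF machinery gene past both thresholds in a two-group comparison. It rose by 0.28 in siPDL1-1 cells (adjusted p = 0.00606), which was 0.22 and lost with the GC trend removed (adjusted p = 0.0136), and the difference of 0.06 in siPDL1-2 cells did not pass, a smaller response than in siNC cells by 0.59 ± 0.10 (adjusted p = 5.92e-04). *EGLN3*, itself a HIF target, rose with IFNγ by 0.18 in siNC and 0.35 in siPDL1-2 cells, the first of which was 0.10 and lost with the GC trend removed (adjusted p = 0.0799). *EGLN2* rose by 0.33 with IFNγ in siPDL1-2 cells, which fell to 0.07 and was lost with the GC trend removed (adjusted p = 0.187). *VHL* was higher than in siNC cells by 0.19 and 0.26 in unstimulated cells with siPDL1-1 and siPDL1-2. *HIF1AN*, which encodes the asparagine hydroxylase FIH, was lower than in siNC cells by 0.19 with siPDL1-2 unstimulated and by 0.16 with siPDL1-1 after IFNγ. *CREBBP* passed in 1 comparison, at 0.25 with siPDL1-2 unstimulated. *CITED2*, a competitor for the coactivators, was lower with siPDL1-1 than with siPDL1-2 by 0.46 unstimulated and 0.47 after IFNγ.

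Of 20 other glycolysis enzymes and transporters, 6 were higher and 1 lower with IFNγ in siNC cells, 1 higher and 4 lower in siPDL1-1 cells, and 9 higher and 1 lower in siPDL1-2 cells. Of all genes 17.9% and 9.34%, 14.4% and 8.49%, and 9.57% and 7.56% were higher and lower. The median log2 changes of the list were 0.08, -0.07 and 0.16. Removing the GC and length trend gave 7 and 1, 3 and 8, and 8 and 1, with medians of 0.08, -0.07 and 0.06. Over the 17922 genes of that fit the counts were 1944 and 3199, 1857 and 3733, and 1599 and 2644, with medians of -0.07, -0.09 and -0.07. *SLC2A3*, the high-affinity glucose transporter GLUT3, rose with IFNγ in siNC cells from 112 to 176 CPM (0.65, adjusted p = 1.19e-08). *PGAM1*, the mutase that follows *PGK1* in glycolysis, was the gene of this list with the largest siRNA effect. It was 349 CPM in unstimulated siNC cells, 781 CPM with siPDL1-1 and 675 CPM with siPDL1-2, and after IFNγ 408, 861 and 783 CPM, differences of 0.94 to 1.16 on the log2 scale that were 0.93 to 1.17 with the GC trend removed. GENCODE lists 13 *PGAM1* pseudogenes, none of which is a row of the table, so its level is uncertain. *SLC16A1*, a lactate transporter, rose with IFNγ by 0.70 in siPDL1-1 cells, from 214 to 349 CPM, and was lower with siPDL1-1 than with siPDL1-2 by 0.70 when unstimulated.

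Of 25 other hypoxia targets, 15 were higher and 3 lower with IFNγ in siNC cells, 7 and 8 in siPDL1-1 cells, and 6 and 2 in siPDL1-2 cells, with medians of 0.29, 0.01 and 0.09. The shares of all genes that were higher and lower were 17.9% and 9.34%, 14.4% and 8.49%, and 9.57% and 7.56%. Once the GC and length trend was removed the counts were 14 and 4, 3 and 11, and 8 and 3, with medians of 0.13, -0.12 and 0.07. Those over the 17922 genes of that fit were 1944 and 3199, 1857 and 3733, and 1599 and 2644, with medians of -0.07, -0.09 and -0.07. In siNC cells the mitophagy receptor *BNIP3L* rose from 115 to 211 CPM, the oxidoreductase *ERO1A* from 71.0 to 125 CPM and *INSIG2* from 35.4 to 58.4 CPM. These transcripts have 36.3% to 37.5% GC, and with the trend removed their changes of 0.87, 0.80 and 0.71 were 0.43, 0.37 and 0.19, all still past the threshold. *TFRC*, the transferrin receptor that takes up iron, fell with IFNγ from 393 to 205 CPM with siNC, from 309 to 145 CPM with siPDL1-1 and from 208 to 125 CPM with siPDL1-2. *HILPDA*, a lipid droplet protein, fell with IFNγ in siPDL1-1 cells by 0.62, from 145 to 93.9 CPM, and *PPFIA4* by 0.68, and *ANKRD37* rose in siPDL1-2 cells by 0.69.

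Several genes of this list differed between siNC and the siRNAs against *PD-L1*. In unstimulated cells 11 of 25 were higher and 4 lower with siPDL1-1 than with siNC, and 8 and 6 with siPDL1-2. Of all genes 9.80% and 8.99%, and 16.5% and 11.9%, were higher and lower. With the GC and length trend removed the counts were 12 and 4, and 6 and 6. As deposited, *ERO1A* (37.5% GC) was higher by 0.73 with siPDL1-1 and 1.00 with siPDL1-2. With siPDL1-2 *BNIP3L* (37.4% GC) was higher by 0.98 and *TFRC* lower by 0.91. After IFNγ 3 of 25 were higher and 13 lower with siPDL1-1 than with siNC, and 3 and 8 with siPDL1-2, against 11.6% and 12.2%, and 8.60% and 9.75%, of all genes. The IFNγ response was lower in siPDL1-1 than in siNC cells for 10 of 25 and higher for 0, against 0.378% and 1.25% of all genes. At an unadjusted p under 0.05 in limma these were 16 and 0. *HILPDA* was among the 10, at -0.70 (adjusted p = 3.98e-06). These counts describe lists chosen with earlier results known and were not tested as sets.

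**Figure D4:**
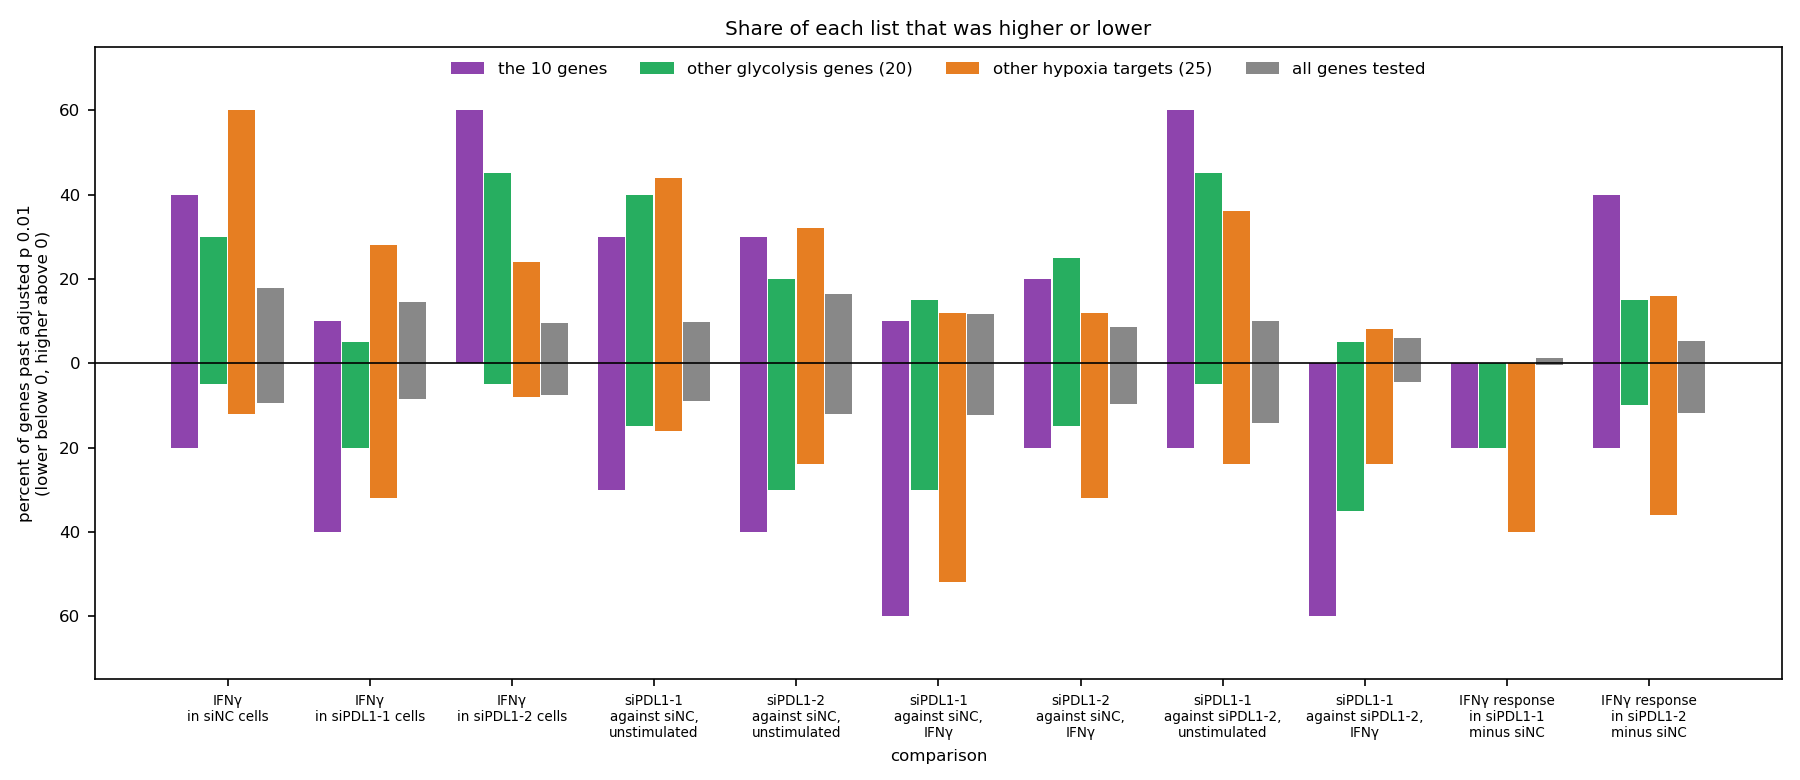
Percent of each list (y axis) that was higher (above 0) or lower (below 0) at an adjusted p under 0.01 in each of 11 comparisons, for the 10 genes, 20 other glycolysis genes, 25 other hypoxia targets and all 17982 genes tested. In siPDL1-2 cells 6 of the 10 genes were higher with IFNγ, and in IFNγ-stimulated cells 6 of 10 were lower with siPDL1-1 than with siPDL1-2.

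Receptors and their partners, paralogs of the 10 genes, and the nuclear receptors *PPARD* and *PPARG* were described from a list of 22, of which 17 passed the filter. With IFNγ 3 were higher and 4 lower in siNC cells, 1 and 7 in siPDL1-1 cells and 2 and 4 in siPDL1-2 cells, with medians of -0.08, -0.14 and -0.04. Of all genes 17.9% and 9.34%, 14.4% and 8.49%, and 9.57% and 7.56% were higher and lower, so that the higher count in siNC cells was near the background. *NRP1*, the neuropilin co-receptor of VEGFA, rose with IFNγ from 62.8 to 138 CPM with siNC, 78.3 to 146 CPM with siPDL1-1 and 68.5 to 123 CPM with siPDL1-2, while *VEGFA* itself fell in the cells of the first 2. *KDR*, the main VEGFA receptor, was low and fell with IFNγ in the cells of every siRNA, to 3.92, 4.35 and 3.44 CPM with siNC, siPDL1-1 and siPDL1-2 (by 0.35, 0.64 and 0.76). *PGF*, the placental growth factor, fell with IFNγ in siPDL1-1 cells from 13.3 to 6.94 CPM. *CALCRL*, the core of the adrenomedullin receptor, was 2.85 CPM in unstimulated siNC cells and higher by 0.60 with IFNγ and by 0.74 with siPDL1-2, neither of which passed with the GC trend removed (-0.18 and 0.02), and its partner *RAMP2* was higher with siPDL1-1 by 0.66, from 1.12 to 2.35 CPM. *PPARD*, a nuclear receptor that can drive *ANGPTL4*, fell with IFNγ in siNC cells from 121 to 70.1 CPM.

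Because *VEGFA*, *ADM* and *NDRG1* are also known to respond to other stresses, a list of 10 genes was counted, made of the stress factor *ATF4* and targets of it. *VLDLR* is on this list and on that of other hypoxia targets. With IFNγ in siNC cells 1 rose and 7 fell, against 17.9% and 9.34% of all genes, with a median of -0.27, among them *TRIB3* (208 to 99.7 CPM) and *CHAC1* (43.2 to 25.4 CPM). In unstimulated cells 2 were higher and 7 lower with siPDL1-1 than with siNC, and 4 higher and 3 lower with siPDL1-2, against 9.80% and 8.99%, and 16.5% and 11.9%, of all genes. For siPDL1-2 these were 6 and 1 with the GC and length trend removed, with a median of 0.25 in place of 0.12. Over the 17922 genes of that fit 2719 were higher and 2861 lower, with a median of 0.02. *PSAT1*, a serine synthesis enzyme, was higher by 1.43 to 1.79 with both siRNAs in both states. The part of this response in the values of the 10 hypoxia and glycolysis genes was not tested.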

How the data were processed

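U251 libraries were made from poly(A) RNA. In CLC Genomics Workbench the authors trimmed reads and aligned them to GRCh38 with Ensembl genes, using both strands and permitting up to 10 hits a read. The signal values deposited by the authors are normalized CPM. Dividing a column by the value of 1 read gave whole numbers (within 0.02 reads) for 100% of values, with scaling factors of 0.959 to 1.04 that matched TMM, and these reads served for filtering and count tests.

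The 12 libraries, grouped from the labels, were fitted together as 6 groups with limma 3.58.1 (trend, robust) after adding a pseudocount of 1 CPM and taking log2. Genes were kept by filterByExpr (minimum count 10, minimum total 15). Calls used Benjamini-Hochberg adjusted p under 0.01 over all 17982 genes, with or without a fold change over 1.5. Fold changes are on the CPM plus 1 scale, which understates those of low genes. The test was checked on simulated data for IFNγ in siNC cells. All 200 of 200 altered genes (log2 change 1, at least 5 CPM) passed both thresholds, with 0 false calls among 17579 genes. The simulation held no GC trend. It did not score smaller differences or calls by the adjusted p alone, which make up most of those of the 10 genes. Alternatives were edgeR 4.0.16 (quasi-likelihood), DESeq2 1.42.0, other scaling, pseudocount 0.1, no filter, fewer libraries, a replicate block and leaving out each library, and, chosen after seeing the data, removal of GC and length trends and crossed pairing. The removal of GC and length trends also re-centred each library on genes of at least 5 CPM. R 4.3.3, Python 3.11.15, numpy 2.4.6, pandas 2.3.3 and matplotlib 3.10.9 were used.

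The 10 genes and all lists were chosen with earlier results of these data known. Named genes were the 10, all HIF machinery genes, up to 4 called genes of each other list per two-group comparison with at least 1 CPM, the 2 genes most like each called member, and *CD274* and *IRF1*. Some genes chosen by this rule are not reported here. Promoter windows are RefSeq, GRCh38.p14, and pseudogenes and canonical transcripts are GENCODE v44. The labels name a column extraction and a stranded library kit, and the methods another extraction, so the protocol is uncertain.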

Additional observations from a re-analysis of the deposited data

Results flagged for a closer look

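The IFNγ response of 8 gene and siRNA pairs differed from that in siNC cells by the interaction test in limma (adjusted p under 0.01 over all genes), with 2 libraries in each group. For siPDL1-1 minus siNC the differences in log2 response were -0.58 for *NDRG1* and -0.26 for *PGK1*. For siPDL1-2 minus siNC they were 0.63 for *ADM*, 0.44 for *SLC2A1*, 0.28 for *NDRG1*, 0.23 for *VEGFA*, -0.29 for *PGK1* and -0.30 for *BNIP3*. Of these, *NDRG1* was the gene whose response differed in opposite directions for the 2 siRNAs. With the GC and length trend removed *SLC2A1* did so too, at -0.18 with siPDL1-1 and 0.36 with siPDL1-2 (adjusted p = 0.00502 and 3.51e-06 in limma). For 2 of the 8 pairs, *PGK1* and *BNIP3* with siPDL1-2, the difference was lost with the GC and length trend removed (-0.09 and -0.10).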

How the results depend on the processing

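Of the 110 differences (10 genes in 11 comparisons), 63 passed the adjusted p of 0.01. Between 55 and 61 of these kept their call in the 8 alternatives fixed at the outset, none of which reversed a call, and 38 kept it whichever library was left out. DESeq2 gave no adjusted p for 2 of the 63, both of *ANGPTL4*. Without the fold threshold, 6, 5 and 6 genes in place of 0, 0 and 1 were called for IFNγ in siNC, siPDL1-1 and siPDL1-2 cells. In unstimulated cells these were 6 and 7 in place of 0 and 1 (siPDL1-1 and siPDL1-2 against siNC), after IFNγ 7 and 4 in place of 0 and 0, between the siRNAs 8 and 6 in place of 2 and 0, and for the response differences 2 and 6 in place of 0 and 1.

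With the GC and length trend removed 53 of 63 were kept and 10 gained. The genes past both thresholds then numbered 0 for IFNγ in siPDL1-2 cells, 1 for siPDL1-1 against siPDL1-2 unstimulated, 1 for the siPDL1-1 response difference (*NDRG1*) and 0 for the siPDL1-2 one. By the adjusted p alone 5 passed for siPDL1-1 against siPDL1-2 unstimulated and 5 for the siPDL1-1 response difference. The response difference of *CA9* with siPDL1-2 reversed to -0.23. DESeq2 called 1 gene for siPDL1-1 against siPDL1-2 unstimulated, DESeq2's size factors and edgeR each left 1 for the siPDL1-1 response difference, and the fit of fewer libraries left 2 for siPDL1-2 against siNC after IFNγ. The cause of these changes was not tested.

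With a library left out, the genes past both thresholds ranged from 1 to 2 for siPDL1-1 against siPDL1-2 unstimulated and from 0 to 1 for either response difference. Those past the adjusted p ranged from 1 to 6 for siPDL1-1 and 4 to 7 for siPDL1-2 against siNC unstimulated, 2 to 5 for siPDL1-2 against siNC after IFNγ, 5 to 8 between the siRNAs unstimulated, and 1 to 3 for the siPDL1-1 response difference. The lone library left in a group is assumed to vary like the others.

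The replicate numbers did not pair the libraries (correlations of -0.30 to 0.36 over 15 pairs of groups). With a replicate block 61 of 63 calls were kept, the changes of *SLC2A1* with IFNγ in siNC cells and of *LDHA* between the siRNAs after IFNγ being lost (adjusted p = 0.0102 and 0.0120). Crossed pairing in 4-library fits gave 1514, 615 and 368 called genes in place of 1460, 562 and 401 for IFNγ in siNC cells, siPDL1-2 against siNC after IFNγ and siPDL1-1 against siPDL1-2 after IFNγ, and lost 3 of 16 calls of the 10 genes (*PGK1* in the second, *LDHA* and *BNIP3* in the third). Among the 10 genes depth limits *ANGPTL4* most (16 to 65 reads).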
